A study of Mus musculus with 9 samples.

Results

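Fos, Fosb, Jun, Junb, Egr1, Egr2, Egr3, Atf3, Ier2 and Nr4a1 are the immediate early transcription factor genes whose cardiac transcript levels are described here. They were chosen by gene name, with earlier results of these data known, so their counts are not an independent test. The reads of all transcripts of a name were summed. All 10 were present among the 41710 gene names of the read table, and all 10 passed the filter on low counts. The hearts came from male mice of the FVB/N strain at 8 months of age, with 3 hearts per group and 1 library per heart. Tg-RKIP hearts carry a transgene for the RAF kinase inhibitor protein RKIP, encoded by Pebp1, under the alpha-MHC promoter, which is active in the myocardium. The Tg-GRK2 label names a transgene for the G protein-coupled receptor kinase 2, whose promoter the labels do not give. FVB hearts carry no transgene, and all 3 groups share the FVB/N background. The number of transgenic lines behind the 3 hearts of a group is not given in the labels. The p-values rest on the small spread between the 3 libraries of a group, described below, and not on that between lines. The comparisons ask how the levels of these genes differ between hearts with either transgene and the non-transgenic controls, and between the transgenic groups.

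Immediate early genes are transcribed within minutes of a stimulus from factors already present in the cell. Serum response factor with its ternary complex partners, which are targets of the ERK kinases, and CREB family factors are their best known activators. Fos and Jun proteins pair through leucine zippers to form the dimeric factor AP-1, while EGR proteins are zinc finger factors and Nr4a1 is an orphan nuclear receptor. RKIP is known as an inhibitor of the ERK cascade. In the heart, several of these genes respond to stretch, to catecholamines and to angiotensin II.

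Total reads ranged from 25458108 to 33447654 per library, and no pair of libraries was identical. Pebp1 was 28.1-fold higher in Tg-RKIP than in FVB by TMM, a scaling of the libraries which assumes that most genes do not differ, and 49.9-fold higher in TPM, a level set to transcript length and library size. Grk2 had 1468, 1460 and 1765 reads in the Tg-GRK2-labelled hearts against 1302, 1589 and 1341 in FVB, a log2 fold change of 0.05 (adjusted p = 0.354), so no excess of reads counted under mouse Grk2 was seen, and these hearts are called Tg-GRK2-labelled throughout. The labels do not give the species or form of that transgene, whose reads may not be counted under this gene. Mitochondrial transcripts took 11.5% to 11.8% of the reads in Tg-RKIP, 22.4% to 22.9% in the Tg-GRK2-labelled hearts and 22.9% to 23.2% in FVB. In Tg-RKIP against FVB, none of the 8 cardiomyocyte markers rose and 7 fell by TMM, while 2 rose and 6 fell by total reads and on TPM, with summed levels of 45857 to 46714 against 48449 to 48755 TPM. The other marker counts are by TMM unless stated. Of all 15504 genes tested, 36.8% rose and 37.1% fell by TMM in Tg-RKIP against FVB at an adjusted p under 0.05. In the Tg-GRK2-labelled hearts against FVB, 12.2% rose and 12.2% fell. All 7 fibroblast markers (2407 to 2419 against 974 to 1002 TPM), all 7 macrophage markers (372 to 380 against 144 to 147), all 7 T and B cell markers (9.19 to 12.0 against 2.34 to 2.65) and all 6 adipocyte markers (166 to 174 against 16.3 to 17.8) rose, as did the 3 of 5 neutrophil markers that were tested (8.36 to 9.35 against 0.320 to 1.06). All 5 erythrocyte markers rose (3477 to 3645 against 739 to 753), as did the 4 of 5 cartilage markers tested (324 to 331 against 9.88 to 10.6) and the 2 of 5 skeletal muscle markers tested (4.37 to 5.60 against 1.21 to 1.65). Of the atrial, endothelial, and smooth muscle and pericyte markers, 2 of 4, 5 of 8 and 3 of 7 rose while 2, 3 and 4 fell (on TPM 2, 5 and 4 rose and 1, 1 and 2 fell). These mixed counts do not set such markers apart from all genes, but their summed levels were higher in Tg-RKIP than in FVB. The atrial sum was 21970 to 22574 against 5741 to 5881 TPM. The endothelial sum was 482 to 486 against 333 to 335 TPM, and the smooth muscle and pericyte sum 897 to 916 against 529 to 545 TPM. In the Tg-GRK2-labelled hearts against FVB, 3 cardiomyocyte markers rose and 5 fell, 5 erythrocyte (1665 to 1690 TPM), 5 fibroblast, 4 adipocyte, 3 macrophage, 3 atrial, 2 T and B cell, 1 neutrophil, 1 endothelial and 1 smooth muscle and pericyte markers rose, 3 endothelial and 4 smooth muscle and pericyte markers fell, and no cartilage or skeletal muscle marker was called. On TPM these hearts had 4 cardiomyocyte markers higher and 1 lower, 2 endothelial markers higher and none lower, 1 smooth muscle and pericyte marker higher and 1 lower, and no T and B cell marker called of the 4 tested. All 5 airway club cell markers rose in both transgenic groups, to 94.5 to 101 TPM in Tg-RKIP and 200.3 to 210 TPM in the Tg-GRK2-labelled hearts. In FVB they summed to 0.411 to 0.822 TPM, with Scgb1a1, Scgb3a2 and Bpifa1 at 0 in every FVB library. The part of these differences in the results for the immediate early genes was not tested.

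The submitters' processing notes name the build GRCm39, and on it Fos lies at chr12:85520664-85524047, Jun at chr4:94937271-94940459, Junb at chr8:85701113-85705347 and Atf3 at chr1:190902493-190950236. Jun and Ier2 have 1 annotated transcript each, and both consist of 1 exon. The most read transcript had 1 exon in 4 of the 10 genes (Jun, Junb, Ier2 and Egr3, the last of them a retained intron form), compared with 10.05% of all 19223 genes with at least 10 reads and 3.29% of the protein-coding ones. Its median over the 10 genes was 2.5 exons and 2721 bases, against 8 exons and 2860 bases in protein-coding genes.

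RefSeq promoter windows were matched by symbol for 7 of the 10 genes, all but Egr1, Egr3 and Ier2. The 5 windows whose start site is that of the most read transcript, or 30 bases before it in Junb, are shown, because such promoters are known to carry the response elements of early genes. Egr2 has 5 windows in the table, of which 1 is shown. Each gives the 250 bases before the RefSeq start site on the gene's strand, 5′ to 3′, in build GRCm38.p6 (chr12:85473640-85473889, plus strand, for Fos, chr4:95052223-95052472, minus strand, for Jun, chr8:84978749-84978998, minus strand, for Junb, chr10:67537619-67537868, plus strand, for Egr2 and chr15:101266596-101266845, plus strand, for Nr4a1). Capitals mark the core of the cAMP response element, TGACG on either strand, and in Egr2 also a CArG box, the element read by serum response factor.
Fos: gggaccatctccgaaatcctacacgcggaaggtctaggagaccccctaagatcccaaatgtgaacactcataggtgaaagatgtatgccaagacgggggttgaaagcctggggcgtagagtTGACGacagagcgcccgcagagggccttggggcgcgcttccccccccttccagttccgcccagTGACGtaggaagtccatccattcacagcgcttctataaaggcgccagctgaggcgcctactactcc
Jun: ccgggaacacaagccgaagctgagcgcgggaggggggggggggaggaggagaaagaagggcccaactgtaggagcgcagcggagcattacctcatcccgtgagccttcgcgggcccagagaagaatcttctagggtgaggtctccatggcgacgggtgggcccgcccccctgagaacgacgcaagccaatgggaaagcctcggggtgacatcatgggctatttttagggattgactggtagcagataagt
Junb: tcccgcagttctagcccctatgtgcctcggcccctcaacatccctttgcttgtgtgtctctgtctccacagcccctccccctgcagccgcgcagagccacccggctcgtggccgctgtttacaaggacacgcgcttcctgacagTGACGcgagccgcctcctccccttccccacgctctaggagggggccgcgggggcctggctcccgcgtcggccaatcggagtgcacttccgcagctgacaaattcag
Egr2: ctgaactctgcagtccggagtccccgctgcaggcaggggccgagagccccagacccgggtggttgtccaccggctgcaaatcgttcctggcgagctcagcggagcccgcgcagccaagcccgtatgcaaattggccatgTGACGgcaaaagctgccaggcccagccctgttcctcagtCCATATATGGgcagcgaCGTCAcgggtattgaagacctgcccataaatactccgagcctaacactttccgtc
Nr4a1: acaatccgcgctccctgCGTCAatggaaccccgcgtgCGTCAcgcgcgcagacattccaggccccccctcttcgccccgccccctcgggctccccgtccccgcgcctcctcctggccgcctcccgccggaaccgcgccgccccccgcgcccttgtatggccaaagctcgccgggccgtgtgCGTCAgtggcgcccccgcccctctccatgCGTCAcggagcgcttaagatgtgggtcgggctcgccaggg

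The core TGACG was found in 6 of the 7 windows on either strand, all but that of Jun, and in 17.8% of all 32851 promoter windows of the same length. Nr4a1 held 4 copies, Fos and Egr2 held 2 each, and Junb, Fosb and Atf3 held 1 each. The CArG box was found in Egr2 alone among the 7, starting 72 bases before the start site and between the 2 TGACG cores, and in 1.47% of all windows. GCGGGGGCG, the EGR binding sequence, was found in Fosb and Nr4a1 and in 2.57% of all windows. The AP-1 element TGANTCA was in none of the 7 and in 6.75% of all windows. The Atf3 window starts 34706 bases from the start of the most read Atf3 transcript, and was not matched to the start of another one. All 4 motifs were searched on both strands, and no match overlapped a match to another motif. These are exact letter matches within 250 bases, so variant elements and sites further upstream were not counted. The matches say nothing of binding.

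Jun had the highest level of the 10 genes in every group, with 36.6 ± 0.787 TPM (s.d., n = 3) in FVB, 41.8 ± 0.114 TPM in Tg-RKIP and 31.8 ± 0.853 TPM in the Tg-GRK2-labelled hearts. In FVB the order by TPM then ran Nr4a1 (12.3 ± 0.796), Atf3 (11.8 ± 0.228), Ier2 (9.19 ± 0.950), Junb (9.15 ± 0.741), Egr1 (7.76 ± 0.152), Fos (4.07 ± 0.582), Egr3 (0.819 ± 0.0759), Egr2 (0.480 ± 0.0419) and Fosb (0.359 ± 0.0814). Nr4a1 and Atf3 overlapped between libraries, as did Ier2 and Junb, while all other neighbours in the FVB order did not. In Tg-RKIP the order behind Jun was Junb (24.2 ± 1.23), Ier2 (18.4 ± 0.303), Nr4a1 (16.0 ± 1.16), Egr1 (13.1 ± 0.383), Atf3 (7.41 ± 0.259) and Fos (4.12 ± 0.246), and only Egr3 (1.57 ± 0.199) and Egr2 (1.48 ± 0.164) overlapped, with Fosb last (0.444 ± 0.0479). In the Tg-GRK2-labelled hearts, Egr1 stood next to Jun (15.1 ± 1.10), followed by Ier2 (12.8 ± 0.860) and Junb (12.6 ± 1.35), which overlapped. Atf3 thus stood behind Jun in FVB, where it overlapped with Nr4a1, and behind 5 genes in both transgenic groups. Jun stood at the 88.2nd, 87.9th and 89.6th percentile of all genes with a TPM above 0 in Tg-RKIP, the Tg-GRK2-labelled hearts and FVB.

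Spread within a group was close to counting error. The coefficient of variation of a gene within a group was a median of 1.06 times the value expected from its reads alone, and lay below that value in 15 of 30 gene and group pairs. The largest ratio was 2.41, for Egr1 in the Tg-GRK2-labelled hearts. The small p-values below rest on this spread, and whether it holds the full variation between hearts was not tested. Over genes with at least 100 reads in a pair of libraries, the median squared difference within groups was 1.37 to 1.52 times counting noise. Its mean was 23.3 and 25.6 times for Tg-GRK2-labelled replicate 1 against replicates 2 and 3, and 2.00 times between replicates 2 and 3. The genes behind that difference were not examined. The depth behind a value differs widely, since Jun had 1859 to 2875 reads per library, while Fosb had 8 to 32, Egr2 21 to 100 and Egr3 51 to 123.

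Fold changes were fitted on read counts with edgeR's quasi-likelihood test, and levels are given as CPM after TMM scaling, that is reads set to the scaled size of the library. In Tg-RKIP against FVB, Junb, Egr1, Egr2, Egr3 and Ier2 rose, Fos, Jun and Atf3 fell by TMM, and Fosb and Nr4a1 did not pass the threshold of 0.05 on the adjusted p, while by total reads Jun and Nr4a1 were higher and Fos was not called. The count of 8 of 10 compares with 73.9% of all 15504 genes tested (36.8% higher and 37.1% lower), so it does not set these genes apart. In hearts with the Tg-GRK2 label against FVB, Junb, Egr1 and Ier2 rose, Jun, Atf3 and Nr4a1 fell, and 4 genes did not pass, a count of 6 of 10 beside 24.5% of all genes (12.2% higher and 12.2% lower). In Tg-RKIP against the Tg-GRK2-labelled hearts, Fosb, Junb, Egr2, Ier2 and Nr4a1 were higher and Fos and Egr1 lower, a count of 7 of 10 beside 74.5% (37.9% higher and 36.6% lower). The median log2 fold change of the 10 genes was 0.16, 0.15 and 0.16 in these comparisons, beside 0.01, -0.00 and 0.02 over all genes. The groups did not overlap in level for 8 of the 10 genes in each comparison, beside 75.7%, 37.1% and 76.4% of all genes, and the exact permutation test gave p = 0.1 for each of them, the smallest value that 3 libraries against 3 allow. Both comparisons with FVB share the same 3 control libraries. In whole-heart RNA, fewer cells of a type and less RNA per cell cannot be told apart.

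**Figure D1:**
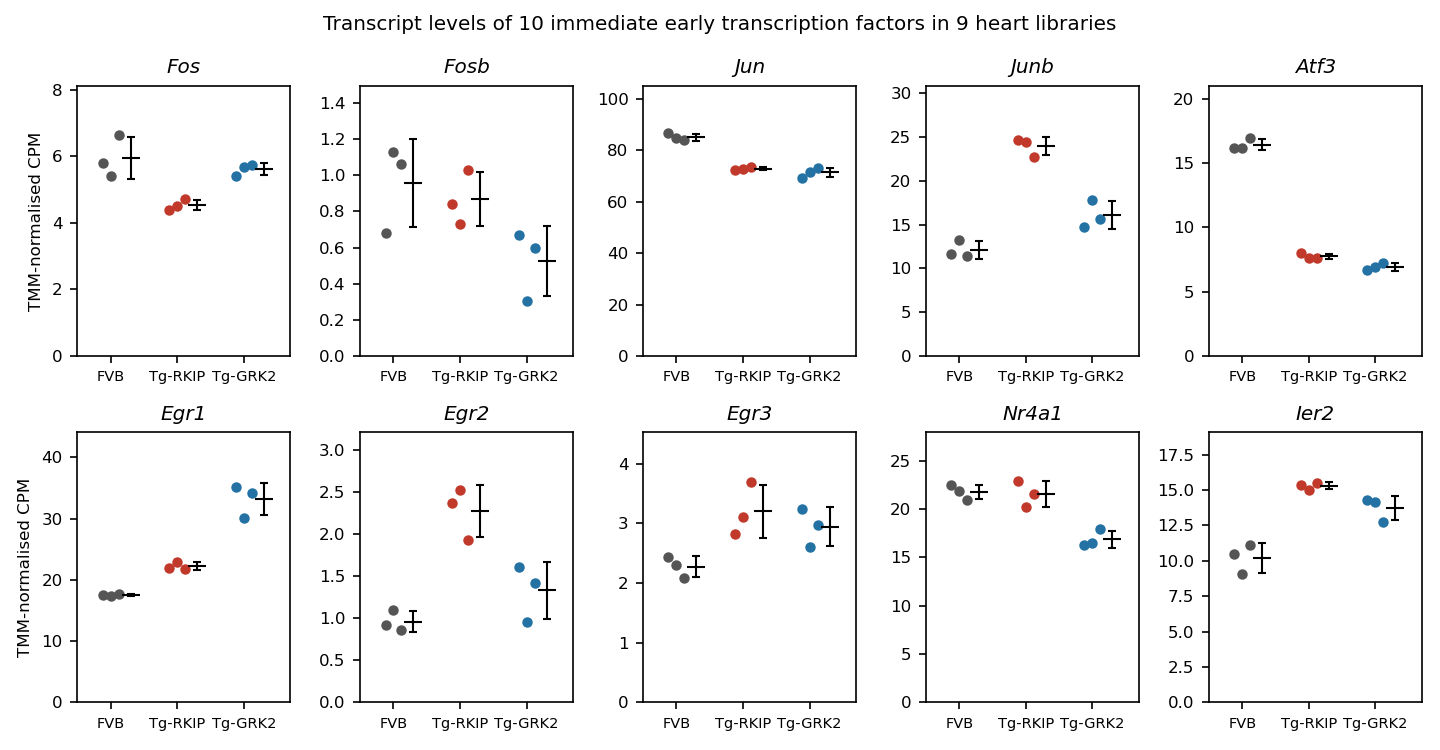
Transcript levels of the 10 genes in TMM-normalised CPM (linear axes from 0), with 1 point per library for FVB (grey), Tg-RKIP (red) and the Tg-GRK2-labelled hearts (blue), and the mean with s.d. (n = 3) as a black bar beside them. Atf3 is at 16.2 to 17.0 CPM in FVB and at 6.65 to 8.00 CPM in the 6 transgenic libraries, and Junb is at 22.8 to 24.7 CPM in Tg-RKIP, above all other libraries.

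The directions in Tg-RKIP depend on how the libraries are scaled. Scaled by total reads alone, the median log2 fold change over all genes in Tg-RKIP against FVB moved from 0.01 to 0.38, and on log2(TPM + 0.1) to 0.43. The calls moved from 5709 higher and 5751 lower to 9710 higher and 2649 lower with total reads, and to 8932 and 1964 on TPM. For the 10 genes they moved from 5 higher and 3 lower to 7 higher and 1 lower under either. Against the Tg-GRK2-labelled hearts the median moved from 0.02 to 0.38 and 0.40, and the calls from 5874 higher and 5677 lower to 9608 and 2847 or 8536 and 2296. The Tg-GRK2-labelled hearts against FVB had a median of 0.01 and 0.04 under these scalings, with 1895 higher and 1898 lower genes by TMM, 2094 and 1654 by total reads, and 1772 and 815 on TPM. Relative to the median of all genes, the changes of the 10 genes differed by at most 0.01 between TMM and total reads, for example -1.09 for Atf3, -0.40 for Fos, -0.23 for Jun and 0.98 for Junb in Tg-RKIP against FVB. By total reads Egr2, Egr3 and Ier2 were at 1.62, 0.86 and 0.96 in Tg-RKIP against FVB, and Fosb, Egr2, Ier2 and Nr4a1 at 1.06, 1.14, 0.52 and 0.71 against the Tg-GRK2-labelled hearts.

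**Figure D2:**
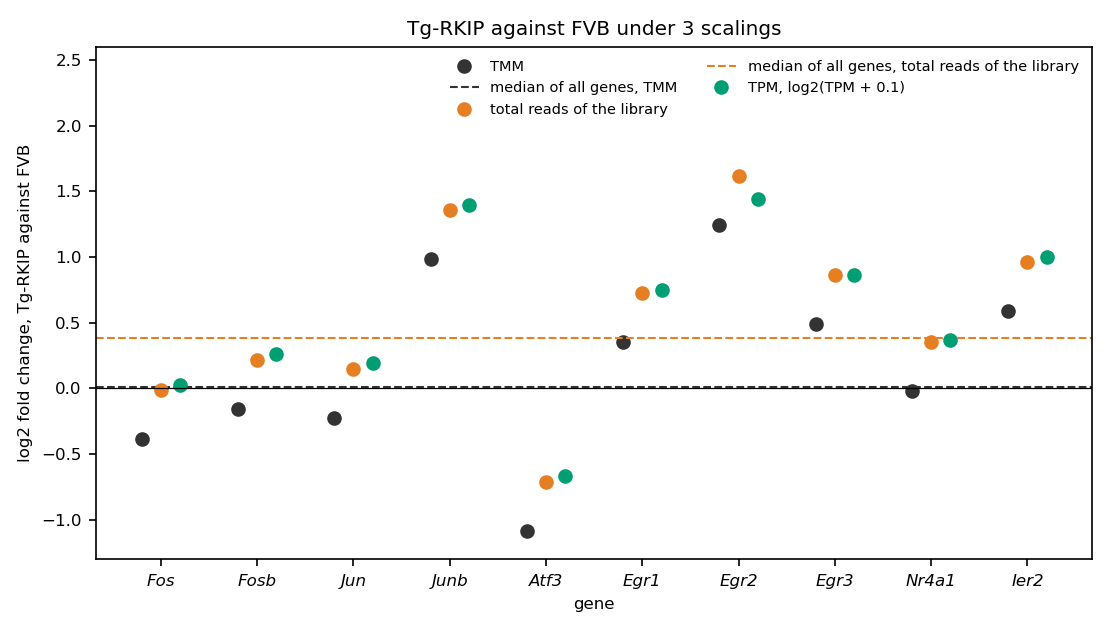
Log2 fold change of the 10 genes in Tg-RKIP against FVB by TMM (black), by total reads (orange) and on log2(TPM + 0.1) (green, for Fosb without the filter on low values), with the median of all genes as a dashed line for the first and second. Junb, Egr1, Egr2, Egr3 and Ier2 lie above 0 and Atf3 below 0 under all 3, while Jun moves from -0.23 to 0.15 and 0.19.

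Fos is the founding member of the family that pairs with Jun proteins. Its level was 5.80, 5.41 and 6.65 CPM in FVB, 4.40, 4.50 and 4.72 CPM in Tg-RKIP and 5.41, 5.67 and 5.76 CPM in the Tg-GRK2-labelled hearts. All 3 Tg-RKIP libraries lay below all others, and the other groups overlapped. The log2 fold change was -0.39 ± 0.10 (SE) in Tg-RKIP against FVB (adjusted p = 0.00156) by TMM, but -0.01 by total reads and 0.02 on TPM. Against the Tg-GRK2-labelled hearts it was -0.31 ± 0.10 (adjusted p = 0.00854) by TMM, but 0.05 by total reads and 0.02 on TPM, and the call was lost with the most read transcript (adjusted p = 0.0508). The Tg-GRK2-labelled hearts did not differ detectably from FVB, at -0.08 with a 95% interval of -0.29 to 0.13. Of the Fos reads, 97.2% were assigned to the 4-exon coding transcript.

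Fosb, the near relative of Fos, was at the edge of detection. It had 17, 32 and 26 reads in FVB, 26, 29 and 31 in Tg-RKIP and 18, 8 and 18 in the Tg-GRK2-labelled hearts, or 0.680, 1.13 and 1.06 CPM, 0.842, 0.733 and 1.03 CPM, and 0.672, 0.307 and 0.596 CPM. In CPM the Tg-GRK2-labelled hearts lay below the rest, narrowly so in the case of FVB replicate 1, while Tg-RKIP and FVB overlapped. In TPM, Tg-GRK2-labelled replicate 1 (0.268) lay above FVB replicate 1 (0.266), so these groups overlapped. Against FVB, Tg-RKIP was at -0.16 on the log2 scale (interval -0.75 to 0.43, and 0.21 by total reads). The Tg-GRK2-labelled hearts were at -0.86 ± 0.32 against FVB (adjusted p = 0.0540). This difference passed at 0.0417 without the filter on low counts, at 0.0474 without Tg-GRK2-labelled replicate 1 and at 0.0306 without FVB replicate 1. It was -0.40 on log2(TPM + 0.1) without filter (adjusted p = 0.389 in limma), and -1.06 to -0.60 with each library left out. Tg-RKIP against the Tg-GRK2-labelled hearts passed narrowly, at 0.70 ± 0.31 (adjusted p = 0.0491). That call was lost with DESeq2 size factors (adjusted p = 0.0515), with the most read transcript in place of the gene (0.160), without the filter on low counts (0.0529), in DESeq2 (0.0977) and without Tg-RKIP replicate 1 (0.0820), Tg-RKIP replicate 3 (0.163), Tg-GRK2-labelled replicate 2 (0.223) or Tg-GRK2-labelled replicate 3 (0.0641), with log2 fold changes of 0.45 to 0.80 among these 4. The transcripts from which an intron of 140 bases is removed, the known source of the shortened protein ΔFosB, held 37 and 4 reads over the 9 libraries. In 3 libraries all Fosb reads were assigned to a single transcript, 1 library in each group and a different transcript in each, so these assignments are not compared.

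Jun encodes the main AP-1 partner of Fos. Its level was 86.7, 84.8 and 83.9 CPM in FVB, 72.4, 72.6 and 73.4 CPM in Tg-RKIP and 69.4, 71.7 and 73.0 CPM in the Tg-GRK2-labelled hearts. Both transgenic groups lay below FVB and overlapped with each other. The log2 fold change was -0.23 ± 0.03 in Tg-RKIP (adjusted p = 1.87e-07), which turned to 0.15 by total reads (adjusted p = 5.24e-05) and 0.19 on TPM (adjusted p = 2.14e-04 in limma). Against FVB, the Tg-GRK2-labelled hearts were at -0.25 ± 0.03 (adjusted p = 5.67e-07), and -0.24 by total reads and -0.20 on TPM. Between the transgenic groups the difference was 0.03 with an interval of -0.03 to 0.09 by TMM, but 0.39 by total reads (adjusted p = 2.75e-11).

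Junb, a Jun paralogue with weaker transactivation, rose in both transgenic groups. Its level was 11.6, 13.2 and 11.4 CPM in FVB, 14.7, 17.9 and 15.7 CPM in the Tg-GRK2-labelled hearts and 24.7, 24.4 and 22.8 CPM in Tg-RKIP. The 3 groups did not overlap. Tg-RKIP exceeded FVB 1.98-fold in Junb (log2 fold change 0.98 ± 0.07, adjusted p = 1.80e-11), and the Tg-GRK2-labelled hearts exceeded FVB 1.33-fold (0.41 ± 0.07, adjusted p = 2.98e-04). Tg-RKIP exceeded the Tg-GRK2-labelled hearts by 0.58 ± 0.06 (adjusted p = 3.61e-08). These directions held by total reads (1.36, 0.42 and 0.94) and on TPM (1.40, 0.46 and 0.94).

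Ratios of reads within a library do not depend on the scaling and were chosen after the values had been seen. Per 100 Jun reads there were 13.4, 15.6 and 13.6 Junb reads in FVB, 21.2, 24.9 and 21.5 in the Tg-GRK2-labelled hearts and 34.1, 33.6 and 31.0 in Tg-RKIP. The balance of the Jun paralogues thus differed between all 3 groups without overlap, from 14.2 ± 1.22 in FVB to 22.5 ± 2.04 and 32.9 ± 1.68. The exact permutation test gave p = 0.1 for each pair, the smallest value that 3 libraries against 3 allow. Fos per 100 Jun reads was 6.69, 6.38 and 7.93 in FVB, 6.08, 6.19 and 6.43 in Tg-RKIP and 7.80, 7.91 and 7.88 in the Tg-GRK2-labelled hearts. Only the transgenic groups were free of overlap with each other there. Egr1 had 20.5 ± 0.427 reads per 100 Jun reads in FVB, 30.5 ± 1.01 in Tg-RKIP and 46.5 ± 4.27 in the Tg-GRK2-labelled hearts, and Ier2 had 12.0 ± 1.28, 21.0 ± 0.289 and 19.3 ± 1.63 in the same order. Nr4a1 had 25.6 ± 0.4996, 29.6 ± 1.95 and 23.6 ± 0.789. None of these 3 genes overlapped between any pair of groups in this ratio. In CPM, 75.7% of all genes did not overlap between Tg-RKIP and FVB. The share was 37.1% between the Tg-GRK2-labelled hearts and FVB and 76.4% between the transgenic groups. No such share was computed for ratios, so a lack of overlap in a ratio does not set a gene apart. Each ratio also carries any difference in Jun itself. By TMM, Jun was at -0.23 in Tg-RKIP and -0.25 in the Tg-GRK2-labelled hearts against FVB (0.15 and -0.24 by total reads). Nr4a1 was at -0.02 in Tg-RKIP against FVB by TMM, and overlapped there in CPM.

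**Figure D3:**
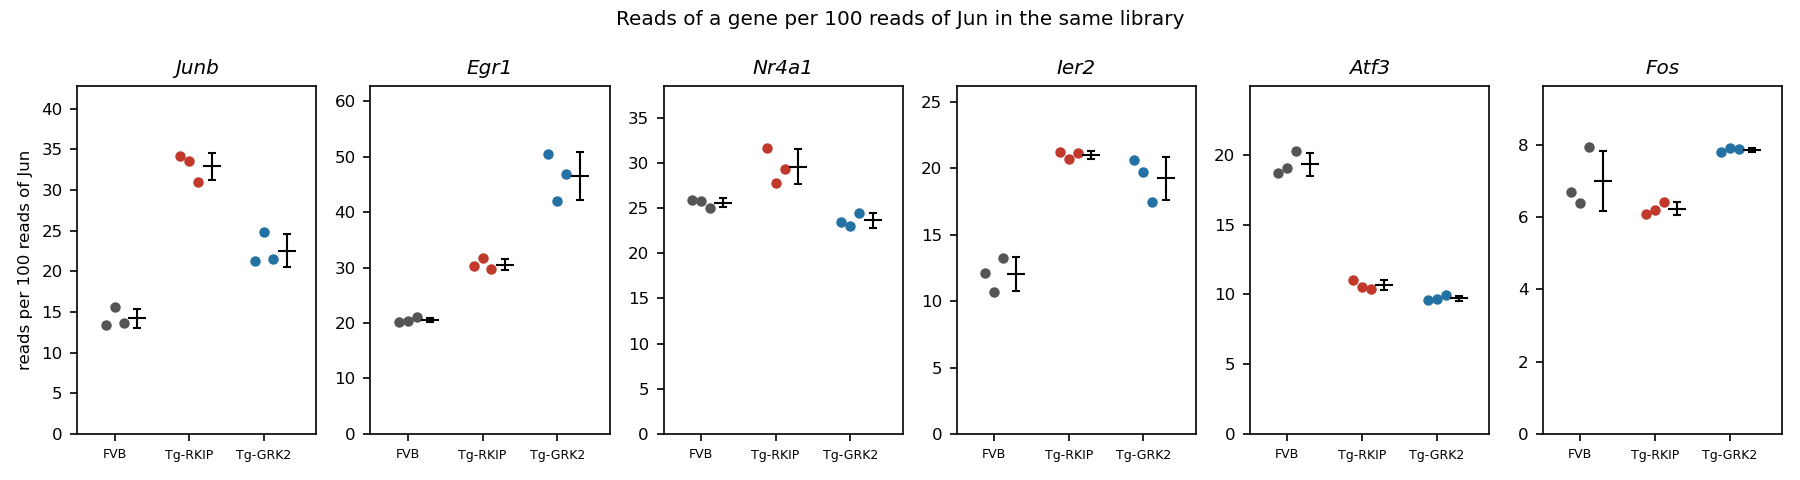
Reads of 6 genes per 100 reads of Jun in the same library (linear axes from 0), with 1 point per library for FVB (grey), Tg-RKIP (red) and the Tg-GRK2-labelled hearts (blue) and the mean with s.d. (n = 3) as a black bar. Junb is at 13.4 to 15.6 in FVB and 31.0 to 34.1 in Tg-RKIP, and Atf3 is at 18.7 to 20.2 in FVB and 9.58 to 11.0 in the transgenic libraries.

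Atf3, a leucine zipper factor that is induced by cell stress and can repress its targets, fell in both transgenic groups. Its level was 16.2, 16.2 and 17.0 CPM in FVB, 8.00, 7.63 and 7.64 CPM in Tg-RKIP and 6.65, 6.94 and 7.25 CPM in the Tg-GRK2-labelled hearts. No transgenic library came near the FVB range, and the lowest Tg-RKIP library lay above the highest one labelled Tg-GRK2. FVB exceeded Tg-RKIP 2.12-fold (log2 fold change -1.08 ± 0.06, adjusted p = 1.01e-12) and the Tg-GRK2-labelled hearts 2.36-fold (-1.24 ± 0.07, adjusted p = 7.47e-12). By total reads these values were -0.71 and -1.23, and on TPM -0.67 and -1.08. Between the transgenic groups the difference was 0.16, with an interval of 0.0032 to 0.31 and an adjusted p of 0.0646 by TMM, but 0.52 by total reads (adjusted p = 1.38e-06). Per 100 Jun reads Atf3 had 18.7, 19.1 and 20.2 reads in FVB, 11.0, 10.5 and 10.4 in Tg-RKIP and 9.58, 9.67 and 9.92 in the Tg-GRK2-labelled hearts. The most read coding transcript took 83.9% of the Atf3 reads, with 278, 411 and 337 raw reads in FVB, 224, 249 and 210 in Tg-RKIP and 162, 150 and 191 in the Tg-GRK2-labelled hearts. The second coding transcript had 124, 45 and 79 reads, 23, 53 and 20 reads, and 0, 31 and 28 reads in the same groups. Both transcripts had their highest reads in FVB, but the Tg-RKIP range of the second overlapped with FVB.

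**Figure D4:**
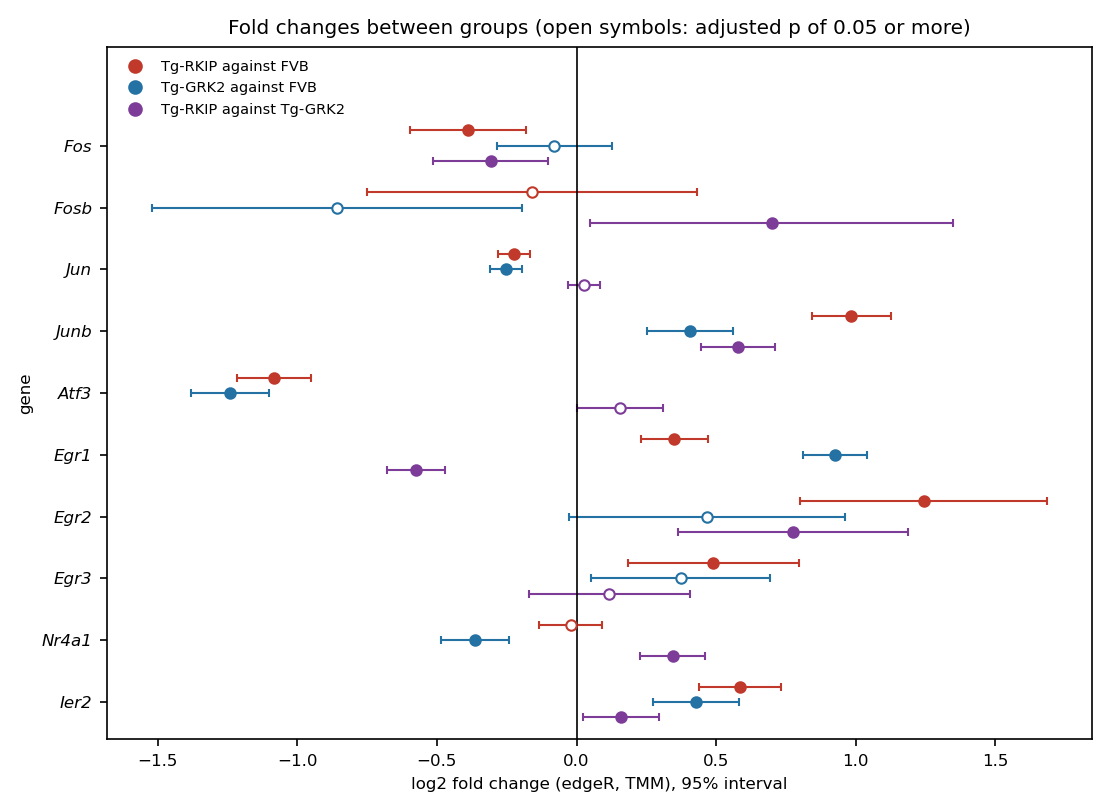
Log2 fold change with its 95% interval for the 10 genes in the 3 comparisons (edgeR, TMM scaling), with filled symbols where the adjusted p is under 0.05 and open symbols elsewhere. Atf3 and Jun lie below 0 and Junb, Egr1 and Ier2 above 0 in both comparisons with FVB (by total reads Jun is at 0.15 in Tg-RKIP), while Egr1 is -0.58 in Tg-RKIP against the Tg-GRK2-labelled hearts.

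Egr1, the most abundant EGR gene here and a direct target of the ERK kinase pathway in many cells, was highest in the Tg-GRK2-labelled hearts. Its level was 17.5, 17.3 and 17.6 CPM in FVB, 21.9, 23.0 and 21.8 CPM in Tg-RKIP and 35.1, 30.2 and 34.2 CPM in the Tg-GRK2-labelled hearts. The 3 groups did not overlap. The Tg-GRK2-labelled hearts exceeded FVB 1.90-fold in Egr1 (log2 fold change 0.93 ± 0.06, adjusted p = 3.81e-11), and Tg-RKIP exceeded FVB 1.28-fold (0.35 ± 0.06, adjusted p = 1.20e-05), a difference of 0.73 by total reads and 0.75 on TPM. Tg-RKIP lay below the Tg-GRK2-labelled hearts by -0.58 ± 0.05 (adjusted p = 1.03e-09), and by -0.21 by total reads and -0.20 on TPM. Junb and Egr1 thus ranked the transgenic groups in opposite order. Per 100 Junb reads there were 88.7, 94.2 and 95.8 Egr1 reads in Tg-RKIP, 151, 131 and 154 in FVB and 238, 169 and 218 in the Tg-GRK2-labelled hearts, with no overlap between any pair of groups. The 3-exon coding transcript took 92.8% of the Egr1 reads.

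Egr2 and Egr3 are lower expressed relatives of Egr1. Egr2 had 23, 31 and 21 reads in FVB, 73, 100 and 58 in Tg-RKIP and 43, 25 and 43 in the Tg-GRK2-labelled hearts, or 0.919, 1.10 and 0.857 CPM, 2.36, 2.53 and 1.93 CPM, and 1.61, 0.958 and 1.42 CPM. Tg-RKIP lay above both other groups, which overlapped. Tg-RKIP exceeded FVB 2.37-fold in Egr2 (log2 fold change 1.24 ± 0.21, adjusted p = 2.05e-05), the largest rise of the 10 genes in any comparison by TMM. It was 0.78 ± 0.20 above the Tg-GRK2-labelled hearts (adjusted p = 0.00134). Those hearts differed from FVB by 0.47, with an interval of -0.03 to 0.96 (adjusted p = 0.170).

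Egr3 was at 2.44, 2.30 and 2.08 CPM in FVB, 2.82, 3.11 and 3.69 CPM in Tg-RKIP and 3.25, 2.61 and 2.98 CPM in the Tg-GRK2-labelled hearts. Both transgenic groups lay above FVB and overlapped with each other. The log2 fold change was 0.49 ± 0.15 in Tg-RKIP (adjusted p = 0.00522) and 0.37 ± 0.15 in the Tg-GRK2-labelled hearts (adjusted p = 0.0848). Between the transgenic groups it was 0.12, with an interval of -0.17 to 0.41, and by total reads 0.48 (adjusted p = 0.00316). Reads of Egr2 and Egr3 were divided among transcripts very unevenly between libraries of a group, so that the most read Egr2 transcript held 0% to 74.0% of them in Tg-RKIP and 0% to 100% in FVB. When the most read transcript stood in for the gene, Egr2 in Tg-RKIP against FVB was 0.48 (adjusted p = 0.817) and Egr3 was 1.08 (adjusted p = 0.386), so both calls rest on the sum over transcripts, as does that of Egr2 against the Tg-GRK2-labelled hearts (1.31, adjusted p = 0.528).

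Nr4a1, also known as Nur77, fell in the Tg-GRK2-labelled hearts. It was at 22.5, 21.9 and 21.0 CPM in FVB, 22.9, 20.2 and 21.5 CPM in Tg-RKIP and 16.3, 16.5 and 17.9 CPM in the Tg-GRK2-labelled hearts. The Tg-GRK2-labelled hearts lay below all others, and Tg-RKIP overlapped with FVB. The log2 fold change against FVB was -0.36 ± 0.06 there (adjusted p = 6.68e-05) and -0.02 in Tg-RKIP, with an interval of -0.13 to 0.09 by TMM, but 0.35 in Tg-RKIP by total reads (adjusted p = 4.58e-06) and 0.37 on TPM. Tg-RKIP exceeded the Tg-GRK2-labelled hearts by 0.34 ± 0.06 (adjusted p = 1.19e-05).

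Ier2 encodes a small nuclear protein of the early response. It was at 10.5, 9.06 and 11.1 CPM in FVB, 15.4, 15.0 and 15.5 CPM in Tg-RKIP and 14.3, 14.1 and 12.7 CPM in the Tg-GRK2-labelled hearts. The 3 groups did not overlap. Ier2 was higher in Tg-RKIP than in FVB by 0.59 ± 0.07 on the log2 scale (adjusted p = 1.67e-07) and 1.35-fold higher in the Tg-GRK2-labelled hearts (0.43 ± 0.07, adjusted p = 1.61e-04). The difference between the transgenic groups was 0.16 ± 0.07 (adjusted p = 0.0337). That call was lost without the filter on low counts (adjusted p = 0.0507), in DESeq2 (0.126), with the most read transcript (0.183) and without Tg-RKIP replicate 1 (0.0726), Tg-RKIP replicate 3 (0.0804) or Tg-GRK2-labelled replicate 3 (0.218), where the log2 fold change was 0.10. Ier2 has 1 transcript, so with the most read transcript its own reads were unchanged and only the fit around them differed.

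Summed over the 10 genes, the level was 175, 172 and 173 CPM in FVB, 176, 174 and 174 CPM in Tg-RKIP and 167, 167 and 172 CPM in the Tg-GRK2-labelled hearts after TMM scaling. In CPM by total reads, without TMM, the sums were 160, 158 and 158 in FVB, 209, 206 and 206 in Tg-RKIP and 153, 155 and 158 in the Tg-GRK2-labelled hearts, so that Tg-RKIP overlapped with FVB on the first scale and lay above all other libraries on the second. The shares of the single genes in the sum differed between groups. Jun supplied 49.1 ± 0.507% of the reads of the 10 genes in FVB, 41.7 ± 0.503% in Tg-RKIP and 42.3 ± 0.793% in the Tg-GRK2-labelled hearts. Atf3 supplied 9.49%, 4.44% and 4.12%, Junb 6.98%, 13.7% and 9.55%, and Egr1 10.1%, 12.7% and 19.7% in the same order.

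Genes with a pattern like that of Fos or Egr1 across the 9 libraries were sought among 11771 other genes, by the root mean square difference of log2 CPM around each gene's mean. Rhbdd3, Uckl1, Nme6, Ncoa3 and Ubn2 were nearest to Fos, with differences of 0.0527 to 0.0589. None of the other 9 members came close to Fos, and the nearest of them, Jun, ranked 3047 (0.158). The 11771 genes had a mean of at least 100 normalized counts in a group, while the members were ranked at any depth. Fosb and Egr2 had means of 28.7 and 77 reads in Tg-RKIP, their deepest group. The part of counting error in their ranks was not tested. Acaca, which encodes the acetyl-CoA carboxylase of fatty acid synthesis, was nearest to Egr1 (0.0600), with 27.9 CPM in Tg-RKIP, 41.7 CPM in the Tg-GRK2-labelled hearts and 23.8 CPM in FVB. Col15a1 (0.134), Slc37a2 (0.158), Mid1 (0.160) and Sox4 (0.163) followed. Egr3 ranked 370 and Ier2 ranked 394 by likeness to Egr1, while Egr2 ranked 9974 and Atf3 ranked 11354.

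The other genes of these pathways were described by lists. The lists were chosen with earlier results of these data known, so their counts are not an independent test. Their counts by TMM stand beside the shares of all genes higher and lower. These were 36.8% and 37.1% in Tg-RKIP against FVB, and 12.2% and 12.2% in the Tg-GRK2-labelled hearts against FVB. Between the transgenic groups they were 37.9% and 36.6%. Of the leucine zipper partners of Fos and Jun proteins, 11 of 12 were tested, and 8 rose and 2 fell in Tg-RKIP against FVB (8 and 0 by total reads), with a median of 0.62. Batf (1.61), Maff (1.32) and Batf3 (1.23) rose most and Mafg (0.11, lost without Tg-RKIP replicate 3 at adjusted p = 0.104 and without FVB replicate 2 at 0.173) least, while Atf7 (-0.40 by TMM and 1.14 on TPM) and Atf2 (-0.34 by TMM and 0.03 by total reads) fell. In the Tg-GRK2-labelled hearts against FVB none rose and 3 fell, namely Batf2 (-1.12), Fosl2 (-0.18) and Mafk (-0.12). Of these calls, Fosl2 was lost in DESeq2 (adjusted p = 0.0549), on TPM (0.289) and without Tg-GRK2-labelled replicate 3 (0.123) or FVB replicate 3 (0.181). Mafk was lost in DESeq2 (0.140), on TPM (0.339) and without Tg-GRK2-labelled replicate 1 or 3 or FVB replicate 1 or 2 (0.0627 to 0.112), which leaves 1 lower gene of 11 on TPM. Tg-RKIP exceeded those hearts in 9 and was below them in 2 of the 11, with Batf3 (2.37), Batf (1.28) and Maff (1.18) at the upper end, and Mafg (0.14), Atf2 (-0.30 by TMM and 0.06 by total reads) and Atf7 (-0.50 by TMM and 1.16 on TPM) at the lower one. Batf3 rests on 2 to 21 reads per library, and Fosl1, with 0 to 2 reads, was not tested.

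Egr4 had no read in any library, and 4 of the 5 EGR, NR4A and NAB relatives were tested. Nab2, a corepressor of EGR proteins, rose in Tg-RKIP against FVB (0.64) and Nr4a3 fell (-0.37 by TMM, 0.01 by total reads). Nr4a3 fell in the Tg-GRK2-labelled hearts (-1.14), as its paralogue Nr4a1 did. Between the transgenic groups Nr4a3 (0.78) and Nab2 (0.60) were higher in Tg-RKIP and Nab1 was lower (-0.13 by TMM, 0.23 by total reads).

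Of all 15504 genes, 36.8% rose and 37.1% fell in Tg-RKIP against FVB by TMM, and 9710 rose and 2649 fell by total reads. Of 37 other primary response genes, 24 rose and 5 fell in that comparison (36 and 0 by total reads, 35 and 0 of 36 on TPM), with a median of 0.31. Arc (1.66), Gadd45g (1.55) and Gadd45b (1.43) rose most, and Apold1 (-0.43 by TMM, -0.05 by total reads with adjusted p = 0.459), Per1 (-0.26 by TMM, 0.12 by total reads) and Dusp1 (-0.23 by TMM, 0.15 by total reads) fell most. Dusp1 encodes a phosphatase that switches off MAP kinases. With the Tg-GRK2 label, 5 rose and 12 fell, with a median of -0.00. Ier5 (-0.64), Gadd45g (-0.55) and Klf4 (-0.53) fell most, and Ccn1 (0.48), Gadd45b (0.43, lost on TPM at adjusted p = 0.0514, without Tg-GRK2-labelled replicate 1 at 0.105 and without FVB replicate 3 at 0.0643) and Bhlhe40 (0.33) rose most. Tg-RKIP exceeded the Tg-GRK2-labelled hearts in 30 of 37 and was below them in 2 (35 and 0 by total reads, 34 and 0 of 36 on TPM), from Gadd45g (2.10), Arc (1.44) and Myc (1.35) to Rhob (0.12), Dusp1 (-0.38 by TMM, 0.07 on TPM) and Apold1 (-0.42 by TMM, -0.05 by total reads with adjusted p = 0.453).

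Of the upstream kinases and factors, 15 of 16 were tested. In Tg-RKIP against FVB 5 rose and 9 fell by TMM with a median of -0.25, but 8 rose and 5 fell by total reads with a median of 0.12. Mapk3, which encodes ERK1 (0.73), Crem (0.48) and Mrtfa (0.43) rose most, and the kinase genes Rps6ka5 (-0.64), Mapk8 (-0.62) and Mapk14 (-0.50 by TMM, -0.09 on TPM with adjusted p = 0.102) fell most. With the Tg-GRK2 label, Elk1 (0.33), Mapk9 (0.19), Mapk14 (0.16) and Srf (0.13, lost on TPM at adjusted p = 0.440) rose and none fell, and Mapk14 was at -0.03 with the most read transcript. Tg-RKIP against those hearts gave 5 higher and 10 lower by TMM (8 and 4 by total reads), with Mapk3 (0.62), Crem (0.59) and Mrtfa (0.36) at the upper end and Mapk14 (-0.67), Mapk9 (-0.65) and Mapk8 (-0.63) at the lower one.

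The list of 10 textbook AP-1 targets was chosen with earlier results of these data known, so its counts are not an independent test. Beside 36.8% of all genes higher and 37.1% lower, 9 of the 10 rose in Tg-RKIP against FVB and none fell, with a median of 1.44. Spp1, which encodes osteopontin (4.56), Timp1, an inhibitor of matrix metalloproteinases (2.78), and Mmp3 (2.31) rose most, and Mmp13 (1.34), Ccnd1 (0.80) and Mmp9 (0.51) least. With the Tg-GRK2 label none rose and 5 fell, among them Spp1 (-1.42), Mmp3 (-0.85), Hmox1 (-0.41) and Cd44 (-0.38). The Mmp3 call was lost with the replicate number as a block (adjusted p = 0.0520), in DESeq2 (0.0891), with only these 2 groups in the fit (0.0598), on log2(TPM + 1) (0.103), and without Tg-GRK2-labelled replicate 1 (0.157), 2 (0.0532) or 3 (0.0507) or FVB replicate 1 (0.0670) or 2 (0.158). All 10 were higher in Tg-RKIP than in those hearts, with Spp1 (5.97), Mmp3 (3.16) and Timp1 (3.01) at the upper end and Mmp9 (0.87), Ccnd1 (0.83) and Plaur (0.42) at the lower one. Plaur lost its call in DESeq2 (adjusted p = 0.0773) and without Tg-RKIP replicate 2 (0.110), Tg-GRK2-labelled replicate 1 (0.0541) or Tg-GRK2-labelled replicate 2 (0.0638). Several of these genes are also expressed by the fibroblasts and macrophages whose markers rose in Tg-RKIP, and that part was not tested. Standard errors of the listed genes named here were 0.02 to 0.42, and their adjusted p-values were at most 0.0387.

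**Figure D5:**
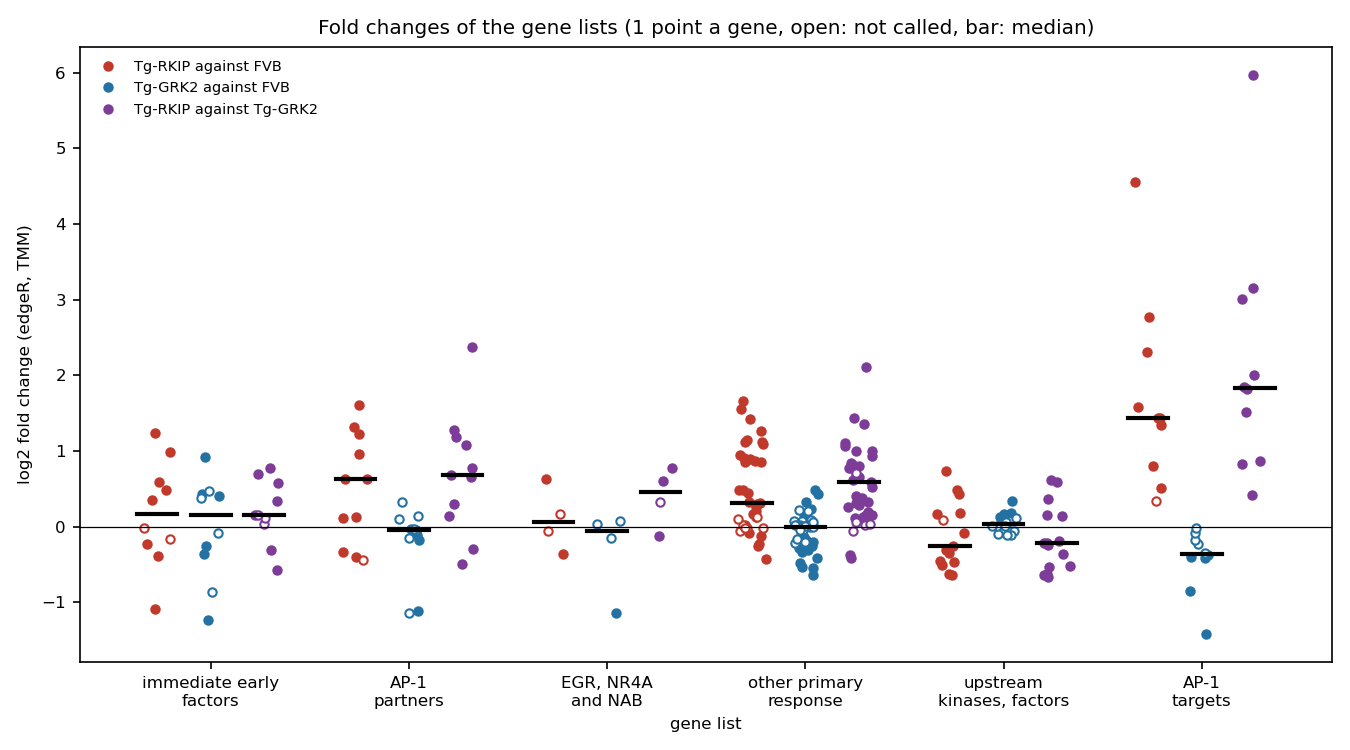
Log2 fold change (edgeR, TMM scaling) of the genes of each list in the 3 comparisons, with 1 point per gene, filled where the adjusted p is under 0.05, and a bar at the median of the list. The lists were chosen with earlier results of these data known. The AP-1 targets have medians of 1.44 in Tg-RKIP against FVB, -0.37 in the Tg-GRK2-labelled hearts against FVB and 1.83 between the transgenic groups, while the 10 immediate early factors have medians of 0.16, 0.15 and 0.16.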

How the data were processed

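The authors deposited read counts per Ensembl transcript as whole numbers without normalization, and TPM values per transcript, for 9 libraries of whole-heart RNA (mRNA fragmented, random hexamers, single reads of 50 bases). The TPM values equal those recomputed from counts and transcript lengths to within 5.50e-06. The aligner, the counting program and the treatment of reads shared by transcripts are not given in the sources used here. Groups were taken from the labels. Counts were summed by gene name and tested with edgeR 4.0.16 in R 4.3.3 (TMM, filterByExpr, glmQLFit and glmQLFTest, all 9 libraries, a mean per group), with p-values adjusted by Benjamini-Hochberg over 15504 genes and a threshold of 0.05. The 95% intervals are not adjusted. Depth was 25458108 to 33447654 reads per library.

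Alternatives were other scalings (DESeq2 size factors, total reads), no filter, DESeq2 1.42.0, a replicate block, only the 2 groups compared, each library left out, the most read transcript, and limma 3.58.1 on log2(TPM + 0.1) or log2(TPM + 1) with a minimum of 1 TPM in 3 libraries or without filter. The fit was also run on simulated counts, and the outcome of that run is not reported here. The members and all gene lists were chosen with earlier results of these data known. Named from each list were the 3 largest and 3 smallest log2 fold changes past the threshold, and for likeness the 5 nearest genes with a mean of at least 100 normalized counts in a group. The values of 1 listed gene are not reported here. Promoter windows are RefSeq's, in build GRCm38.p6. Exact permutation tests were two-sided.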

Additional observations from a re-analysis of the deposited data

How the results depend on the processing

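Values are log2 fold changes or counts of genes by edgeR with TMM unless stated. Apart from leaving libraries out, 247 values of the 10 genes kept direction and side of the threshold, 13 lost and 13 gained the call, and 21 turned. With each library left out, 169 stayed, 7 lost and 2 gained the call, and 2 turned.

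Scaled by total reads, Tg-RKIP against FVB had 9710 genes higher and 2649 lower (1 of the 10 lower), and Fosb (0.21), Jun (0.15), Nr4a1 (0.35), Atf2 (0.035), Nr4a3 (0.0088), Per1 (0.12) and Dusp1 (0.15) turned. Tg-RKIP against the Tg-GRK2-labelled hearts had 9608 and 2847 (8 and 1 of the 10), and Fos (0.055), Atf2 (0.064), Nab1 (0.23) and Grk2 (0.33) turned. On log2(TPM + 0.1), log2(TPM + 1) and log2(TPM + 0.1) without filter, Tg-RKIP against FVB had 8932, 8956 and 10077 genes higher and 1964, 1960 and 2137 lower (1 of the 10 lower in each). Fos (0.024, 0.018 and 0.024), Jun (0.19, 0.19 and 0.19), Nr4a1 (0.37, 0.35 and 0.37), Atf7 (1.14, 1.09 and 1.14), Atf2 (0.15, 0.14 and 0.15), Nr4a3 (0.087, 0.064 and 0.087), Per1 (0.18, 0.17 and 0.18) and Dusp1 (0.20, 0.20 and 0.20) turned, as did Fosb (0.26) without filter. Tg-RKIP against the Tg-GRK2-labelled hearts had 2296, 2308 and 2494 lower (1 of the 10 in each) and, without filter, 9534 higher (8 of the 10), and Fos (0.019, 0.016 and 0.019), Atf7 (1.16, 1.10 and 1.16), Atf2 (0.17, 0.16 and 0.17), Nab1 (0.10, 0.10 and 0.10), Dusp1 (0.071, 0.069 and 0.071) and Grk2 (0.42, 0.40 and 0.42) turned. The Tg-GRK2-labelled hearts against FVB had 815, 807 and 645 genes lower there, and 1206 in DESeq2, and Fos turned (0.0042, 0.0024 and 0.0042). The median of all genes moved with these scalings in both comparisons with Tg-RKIP, and no scaling can be shown right from these counts.

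With the most read transcript in place of the gene, 3 of the 10 were higher in Tg-RKIP against FVB, and 2 higher and 1 lower against the Tg-GRK2-labelled hearts, while those hearts against FVB had 816 genes higher and 844 lower. Nr4a3 (0.11) and Per1 (1.40) turned in the first comparison, Grk2 (0.26) in the second, and Egr2 (-0.83), Mapk14 (-0.027) and Grk2 (-0.11) in the third. Of the listed genes, Mafg, Mrtfa and Crem lost their calls in the first, Maff, Myc, Mrtfa, Crem and Plaur in the second and Batf2, Fosl2, Mafk, Gadd45b, Mapk9, Spp1 and Mmp3 in the third. In DESeq2 and without the filter on low counts, 3 of the 10 were higher in Tg-RKIP against the Tg-GRK2-labelled hearts. The cause was not tested.

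Leaving out each library gave 5446 to 5527 genes higher and 5566 to 5631 lower in Tg-RKIP against FVB (5 and 3 of the 10), 1576 to 1645 and 1522 to 1658 in the Tg-GRK2-labelled hearts against FVB (3 and 3 to 4 of the 10), and 5637 to 5753 and 5466 to 5567 between the transgenic groups (3 to 5 and 2 of the 10). Nr4a1 and Grk2 in Tg-RKIP against FVB ranged from -0.069 to 0.029 and from -0.013 to 0.057, Fos in the Tg-GRK2-labelled hearts from -0.15 to 0.0055, and Grk2 between the transgenic groups from -0.057 to 0.0033. These ranges are by TMM. By total reads Grk2 in Tg-RKIP against FVB was 0.40 (adjusted p = 2.84e-09). It was 0.42 on log2(TPM + 0.1) (adjusted p = 2.41e-04 in limma) and 0.15 with the most read transcript (adjusted p = 0.0199).

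Replicate numbers are shared by the groups, but same-numbered libraries did not deviate together (r from -0.05 to 0.05 over genes, for 9 pairs). With a spread so close to counting error this check could miss a shared origin, and the labels do not say that the numbers pair hearts. With the replicate number as a block, Tg-RKIP against FVB had 5666 genes higher and 5735 lower, the Tg-GRK2-labelled hearts against FVB 1834 and 1826, and there were 5837 and 5654 between the transgenic groups, and of the 10 genes Fosb lost its call (adjusted p = 0.0555), as did Mmp3 among the listed genes in the Tg-GRK2-labelled hearts against FVB (0.0520).

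Fosb, Egr2 and Egr3 rest on 8 to 123 reads per library, which limits the size of difference that 3 hearts a group can show.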
